A study of Mus musculus with 6 samples.

Results

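The genes described here are 32 type I interferon response genes, namely interferon-stimulated genes together with STAT and IRF factors, taken by gene symbol from a table of 22298 genes. The 2'-5'-oligoadenylate synthetase (OAS) genes were not among them. All 32 symbols were found once in each library's table, and all 32 passed the filter on low counts. Thymus RNA of untreated C57BL/6 mice was sequenced in 3 libraries of Toxf/f mice, the controls, which carry floxed Tox alleles and no Cre, and in 3 libraries of the genotype Toxf/fCd4Cre, whose Cre transgene is under control of Cd4 regulatory sequences. Replicate 1 of each genotype was of 4-week mice, and the other two replicates were of 3-week mice. All libraries carried the floxed alleles, and no library had Cd4Cre with an unfloxed Tox gene, so loss of Tox and presence of Cre cannot be told apart.

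Type I interferons bind the IFNAR1 and IFNAR2 receptor chains, whose kinases JAK1 and TYK2 activate STAT proteins. These join IRF9 and bind a DNA sequence called the interferon-stimulated response element (ISRE) near genes for antiviral proteins, nucleic acid sensors and parts of the pathway itself. In the thymus, low amounts of interferon are made in the medulla without infection, and interferon-stimulated genes are known to be expressed by mature thymocytes there.

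Tox, measured as a check of the labels, was at 99.2 to 109 CPM (library counts scaled to a common total by the TMM method) in the controls and 10.2 to 15.1 CPM in the Cd4Cre libraries. Estimated counts per library ranged from 14550593 to 16099023. The titles name double-negative thymocytes and the protocol a sort of DN2 cells, but Cd4 and Cd8a, which such cells lack on the surface, were at 296 ± 6.4 and 562 ± 13.8 FPKM (fragments scaled for gene length and depth, the authors' values, SD, n = 3) in the controls. The DN2 markers Kit and Il2ra were at 3.91 ± 0.512 and 22.7 ± 1.68 FPKM. The labels do not say that each library came from a separate mouse, so p-values measure the spread between libraries, which may be technical. Fewer cells of a type and less RNA per cell cannot be told apart in these bulk libraries.

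Promoter sequences show how the ISRE lies near several of these genes. RefSeq promoters (GRCm38.p6, 250 bases before to 50 bases after a transcription start) were matched for 23 of the 32 genes. Searched on both strands as GAAANN followed directly by GAAA, the ISRE was present in 11 of these 23 (47.8%), against 3.99% of 27025 genes in the same reference. The following stretches before the start are shown because they hold the complete motif, in capitals, and are written 5′ to 3′ on the strand of the gene, so that runs of TTTC mark the motif on the opposite strand.
Isg15, chr4:156200850-156200921, minus strand: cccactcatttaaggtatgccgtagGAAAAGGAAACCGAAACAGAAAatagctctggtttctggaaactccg
Ifit1, chr19:34640760-34640838, plus strand: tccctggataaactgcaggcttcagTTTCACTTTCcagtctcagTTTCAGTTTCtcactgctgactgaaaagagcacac
Ifit3, chr19:34583348-34583441, plus strand: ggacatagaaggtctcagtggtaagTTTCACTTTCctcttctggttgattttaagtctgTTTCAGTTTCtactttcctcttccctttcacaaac
Ifit3b, chr19:34607744-34607837, plus strand: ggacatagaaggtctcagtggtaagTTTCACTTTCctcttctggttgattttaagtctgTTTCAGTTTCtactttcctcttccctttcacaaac
Trim30a, chr7:104465195-104465254, minus strand: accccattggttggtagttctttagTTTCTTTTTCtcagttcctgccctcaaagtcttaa
Rsad2, chr12:26456538-26456597, minus strand: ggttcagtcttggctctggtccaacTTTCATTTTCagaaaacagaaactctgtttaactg
Bst2, chr8:71537562-71537627, minus strand: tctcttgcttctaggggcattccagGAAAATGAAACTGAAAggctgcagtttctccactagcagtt
Stat2, chr10:128270251-128270310, plus strand: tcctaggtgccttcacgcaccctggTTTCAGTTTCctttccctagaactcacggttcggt

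Isg15 held 3 overlapping matches in 1 run, and Ifit1, Ifit3, Ifit3b and Bst2 held 2 each. The stretches of Ifit3 and Ifit3b were identical over all 94 bases. In Ddx58, Ifih1 and Eif2ak2 the motif lay only after the start. Of the 12 matched genes that fell in the Cd4Cre libraries (below), 6 held the motif, and of the 11 others 5 did. In the 250 bases before the start alone these counts were 3 of 12 and 5 of 11. The gamma-activated site, another interferon-responsive sequence, searched as TTCNNNGAA, was found in 6 of 23 genes (26.1%) and in 9.55% of all genes, and in 1 promoter it shared bases with an ISRE match. A match describes letters, not binding.

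The comparison of genotypes asks whether interferon response transcripts differ between the Toxf/fCd4Cre and Toxf/f libraries. In Cd4Cre 18 of the 32 genes fell, none rose and 14 did not pass the test (edgeR quasi-likelihood, adjusted p threshold 0.05 over 13934 genes), whereas 4.4% of all genes tested passed, 3.19% as lower and 1.21% as higher. Ifi27l2a, a small interferon-induced protein also called ISG12, and Ifit1, which binds foreign RNA, fell at least 2-fold, with log2 fold changes of -1.57 and -1.06. Of the other genes that fell, 11 had log2 changes between -1 and -0.5 and 5 had smaller ones. The median log2 fold change of the 32 genes was -0.43, and that of all genes tested was 0.01.

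The difference appeared in every Cd4Cre library. Summed over the 32 genes, the controls had 1540, 1540 and 1400 CPM and the Cd4Cre libraries 1110, 1070 and 1140 CPM, which left 74.2% of the control mean. Ifi27l2a made up 12.7% of that difference, and without it 76.3% was left. In 24 of the 32 genes all 3 Cd4Cre libraries lay below all 3 controls, a separation seen in 10.6% of all genes tested. The reverse held for 1 gene, Isg20, and for 11.3% of all genes. The number of genes that fell was 11 without control replicate 1, without control replicate 2 or without Cd4Cre replicate 1. It was 21 without Cd4Cre replicate 3, with 1 gene, Isg20, then higher. Calls over all genes tested moved as well. The share that fell was 1.76%, 1.88% and 2.03% in the former fits. Without Cd4Cre replicate 3 it was 6.58%, and 584 genes rose, against 3.19% and 168 with all libraries. Leaving out any 1 library kept the calls of 10 genes, which are Irf7, Irf9, Dhx58, Zbp1, Eif2ak2, Ifit1, Trim30a, Parp14, Rtp4 and Ifi27l2a.

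**Figure D1:**
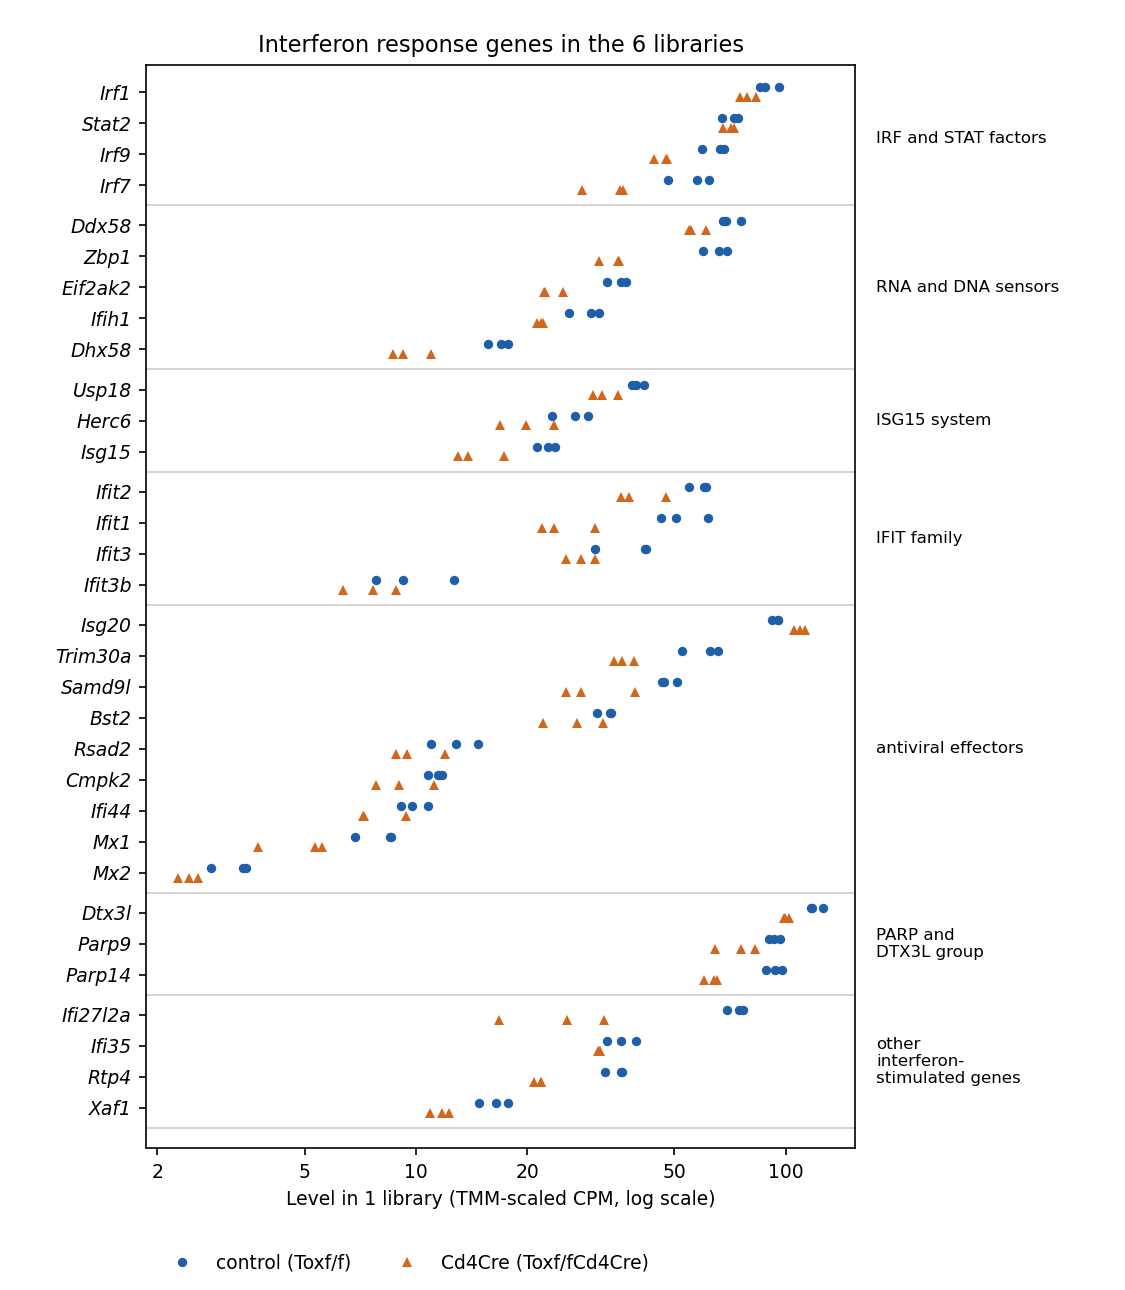
Level of each interferon response gene in each library (horizontal, TMM-scaled CPM, log scale), grouped by role. Circles are the 3 controls and triangles the 3 Cd4Cre libraries. For 24 of 32 genes every triangle lies left of every circle, and for Isg20 every triangle lies right.

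Among the factors that carry the signal, Irf7, the factor that amplifies interferon production, and Irf9, the DNA-binding partner of the STATs, fell. Irf7 was at 57.6, 61.9 and 48 CPM in the controls (replicates 1 to 3) and at 35.6, 36.4 and 28.1 CPM in Cd4Cre, with a log2 fold change of -0.74 (SE 0.12, adjusted p = 0.00224). Irf9 was at 68.2, 66.6 and 59.3 CPM and at 47.5, 44 and 47.7 CPM, a change of -0.48 (SE 0.08, adjusted p = 0.00312). For both genes the groups did not overlap, and replicate 3 was the lowest control.
Stat2, the STAT of the interferon receptor, had 74.3, 72.3 and 67.3 CPM in control libraries, against 72.3, 71.3 and 67.7 CPM in Cd4Cre, with a change of -0.02 (SE 0.07, adjusted p = 0.936). Its groups overlapped over nearly their whole range, although its promoter held an ISRE (above). Irf1, a factor induced mainly by interferon gamma, was at 95.8, 85.2 and 87.9 CPM and at 83.1, 78.7 and 75.4 CPM (-0.18, SE 0.08, adjusted p = 0.253). Its groups did not overlap, but the difference did not pass.

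All 5 sensors of RNA and DNA fell. Zbp1, which recognises nucleic acids of the Z form, was at 65.9, 69.5 and 59.7 CPM in control libraries, against 35.4, 35.3 and 31.3 CPM in Cd4Cre (log2 fold change -0.93, SE 0.09), and its adjusted p of 2.55e-05 was the smallest of the 32 genes. Dhx58 (LGP2), a regulator of the RIG-I-like receptors, had 17.7, 17 and 15.7 CPM and 11, 8.66 and 9.25 CPM (-0.80, SE 0.13, adjusted p = 0.00179). Each of these Cd4Cre values lay well below the lowest control.
Eif2ak2 (PKR), the kinase that stops translation on double-stranded RNA, was at 35.9, 37.1 and 32.9 CPM and at 22.2, 22.4 and 25 CPM (-0.60, SE 0.09, adjusted p = 0.00177). Ifih1 (MDA5), a receptor for long double-stranded RNA, was at 31.3, 29.7 and 25.9 CPM and at 21.8, 21.2 and 22.1 CPM (-0.42, SE 0.10, adjusted p = 0.0286). Ddx58 (RIG-I), the receptor for RNA with a 5′ triphosphate, was at 75.7, 69.1 and 67.9 CPM and at 60.9, 54.9 and 55.3 CPM (-0.31, SE 0.08, adjusted p = 0.0388). The calls of the last pair were lost in several fits with 1 library left out. Over all such fits the log2 change ran from -0.49 to -0.36 for Ifih1 and from -0.36 to -0.27 for Ddx58. Ifih1 had adjusted p from 0.108 to 0.173 when control replicate 1 or 2 was left out, or Cd4Cre replicate 1, and Ddx58 had adjusted p from 0.0608 to 0.227 when any 1 control library or Cd4Cre replicate 1 or 2 was left out.

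In the ISG15 system, Isg15, the ubiquitin-like protein that is attached to other proteins, fell. It was at 22.8, 23.8 and 21.2 CPM in control libraries, against 17.3, 13 and 13.8 CPM in Cd4Cre (-0.62, SE 0.12, adjusted p = 0.00826, or 0.0519 without control replicate 2). Usp18, the protease that removes ISG15 and restrains the receptor, was at 39.5, 41.4 and 38.3 CPM and at 31.8, 35.3 and 30.2 CPM (-0.29, SE 0.09, adjusted p = 0.0971, or 0.0328 without Cd4Cre replicate 2). The groups of both genes were separate, and only Isg15 passed with all libraries.
Herc6, a ligase for ISG15 in mice, ranged from 23.3 to 29.2 CPM in the controls and from 16.9 to 23.7 CPM in Cd4Cre (-0.40, SE 0.13, adjusted p = 0.127, or 0.00925 without Cd4Cre replicate 3, its highest Cd4Cre library). Of the enzymes that activate and transfer ISG15, Ube2l6, the conjugating enzyme, fell (-0.37, SE 0.09, adjusted p = 0.0297, or 0.0861 to 0.133 when any 1 control library or Cd4Cre replicate 1 was left out), and Uba7, the activating enzyme, had a change of -0.13 (adjusted p = 0.588).

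The IFIT proteins bind viral RNA and block its translation, and 2 of the 4 genes fell. Ifit1 was at 50.5, 61.7 and 46 CPM in control libraries, against 21.9, 23.7 and 30.5 CPM in Cd4Cre (-1.06, SE 0.14, adjusted p = 0.000673), or 48.1% of its control level. Ifit2 was at 60, 61 and 54.7 CPM and at 37.8, 35.8 and 47.5 CPM (-0.54, SE 0.10, adjusted p = 0.00826, or 0.0562 and 0.0596 without control replicate 1 and Cd4Cre replicate 1). In both genes Cd4Cre replicate 3 was the highest of its group and still below every control.
Ifit3 was at 41.7, 42 and 30.5 CPM and at 30.5, 25.5 and 27.9 CPM (-0.45, SE 0.12, adjusted p = 0.0691), so that its lowest control nearly met its highest Cd4Cre library. Without control replicate 3 its adjusted p was 0.0118 and its change -0.58. Ifit3b ranged from 7.78 to 12.7 CPM in the controls and from 6.36 to 8.86 CPM in Cd4Cre (-0.38, SE 0.19, adjusted p = 0.359). Ifit3 and Ifit3b are uncertain as separate genes: 51.2% of the 50-base words in the longest Ifit3 transcript also occur in transcripts of other genes (GENCODE M21), here Ifit3b, and the counts of both genes were not whole numbers in any of the 6 libraries.

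Of 9 antiviral effectors, Trim30a, Samd9l and Mx1 fell and 6 did not pass. Trim30a, which dampens Toll-like receptor signalling, was at 62.6, 65.6 and 52.5 CPM in control libraries, against 34.4, 36.1 and 39 CPM in Cd4Cre (-0.72, SE 0.10, adjusted p = 0.000491). Its transcript shares 6.53% of its 50-base words with other genes, here Trim30d, and its counts were not whole numbers in any of the 6 libraries. Apart from Ifit3 and Ifit3b, the share was larger for Herc6 (23.8%, Gm45193), Rtp4 (13.6%, Gm45338), Ifit1 (7.13%, Ifit1bl2 and Ifit1bl1) and Mx2 (6.55%, Mx1). Samd9l, a restriction factor acting on translation, was at 46.8, 50.9 and 46.2 CPM and at 25.4, 28 and 39.2 CPM (-0.64, SE 0.14, adjusted p = 0.0191). Here Cd4Cre replicate 3 stood apart from the other Cd4Cre libraries, and the adjusted p was 0.0523 to 0.0864 when any 1 control library or Cd4Cre replicate 1 or 2 was left out.
Mx1, a dynamin-like GTPase whose gene is defective in C57BL/6 mice, was at 8.49, 8.54 and 6.85 CPM and at 5.32, 3.74 and 5.57 CPM (-0.71, SE 0.18, adjusted p = 0.0461, or 0.0583 to 0.191 without any 1 of the same 5 libraries). Its paralog Mx2 ranged from 2.79 to 3.48 CPM in the controls and from 2.28 to 2.57 CPM in Cd4Cre and did not pass (-0.41, SE 0.21, adjusted p = 0.376). Mx2 was the least abundant of the 32 genes.

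Rsad2 (viperin), which makes a chain-terminating nucleotide, and Cmpk2, the nucleotide kinase encoded next to it, did not pass, with log2 changes of -0.35 and -0.28 (adjusted p = 0.268 and 0.371). Rsad2 was at 11 to 14.7 CPM in the controls and 8.86 to 12 CPM in Cd4Cre, and Cmpk2 at 10.8 to 11.8 and 7.79 to 11.2 CPM, so the groups of both overlapped, and in both Cd4Cre replicate 2 was the highest of its group. Bst2 (tetherin), which holds budding virus at the cell surface, ranged from 30.8 to 33.6 CPM and from 22 to 32.1 CPM (-0.27, adjusted p = 0.299, or 0.0215 without Cd4Cre replicate 3). Ifi44 had 9.11 to 10.8 and 7.21 to 9.39 CPM (-0.32, adjusted p = 0.316).
Isg20, an exonuclease that degrades RNA, went the other way, with 95.1, 95.1 and 91.9 CPM in control libraries, against 105, 113 and 109 CPM in Cd4Cre. Its groups did not overlap, and its log2 fold change of 0.21 (SE 0.07) did not pass (adjusted p = 0.114, or 0.0475 without Cd4Cre replicate 3). It was the 1 gene of the 32 with a positive change.

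Parp14, an ADP-ribosyltransferase, and Dtx3l, a ubiquitin ligase that works in a complex with PARP9, fell. Parp14 was at 97.9, 93.7 and 88.4 CPM in control libraries, against 64, 60.2 and 65.3 CPM in Cd4Cre (-0.56, SE 0.07, adjusted p = 0.000485). Dtx3l was at 117, 118 and 126 CPM and at 102, 99.3 and 98.9 CPM (-0.27, SE 0.07, adjusted p = 0.0381, or 0.0522 to 0.181 when any 1 control library or Cd4Cre replicate 1 or 2 was left out). Parp9 was at 96.7, 93.1 and 90.1 CPM and at 75.6, 64.3 and 82.7 CPM and did not pass (-0.33, SE 0.09, adjusted p = 0.0584, or 0.00255 without Cd4Cre replicate 3).
These 3 genes lie next to each other on chromosome 16, and exons of Parp9 and Dtx3l overlap on opposite strands. The use of strand in counting is not given in the sources used here, and the counts of both were not whole numbers in all 6 libraries, so reads of this pair may be shared. Exons of Irf9, Parp14, Rtp4 and Herc6 overlap Rnf31, Gm49730, Gm45338 and Gm45193 on the same strand. Those of Irf1, Irf7, Dhx58, Eif2ak2, Usp18 and Ifi35 overlap other genes on the opposite strand. The counts of these genes were whole numbers in all 6 libraries.

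Of the 4 remaining genes, Ifi27l2a, Rtp4 and Xaf1 fell. Ifi27l2a was at 76.7, 75 and 69.6 CPM in control libraries, against 25.6, 16.8 and 32.2 CPM in Cd4Cre (-1.57, SE 0.19, adjusted p = 0.00247), or 33.6% of its control level. Its Cd4Cre libraries varied more among themselves than its controls did, at 24.9 ± 7.75 against 73.7 ± 3.69 CPM (SD, n = 3). Rtp4, a chaperone for receptor transport, was at 35.8, 36.1 and 32.4 CPM and at 20.9, 21.8 and 21.8 CPM (-0.69, SE 0.09, adjusted p = 0.000438).
Xaf1, a pro-apoptotic partner of the inhibitor XIAP, was at 16.5, 17.7 and 14.8 CPM and at 11.8, 10.9 and 12.3 CPM (-0.48, SE 0.12, adjusted p = 0.0312, or 0.0713 to 0.177 when control replicate 1 or 2 was left out, or Cd4Cre replicate 1 or 2). Ifi35 ranged from 32.8 to 39.4 CPM and from 31.1 to 31.4 CPM and did not pass (-0.20, SE 0.09, adjusted p = 0.289).

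**Figure D2:**
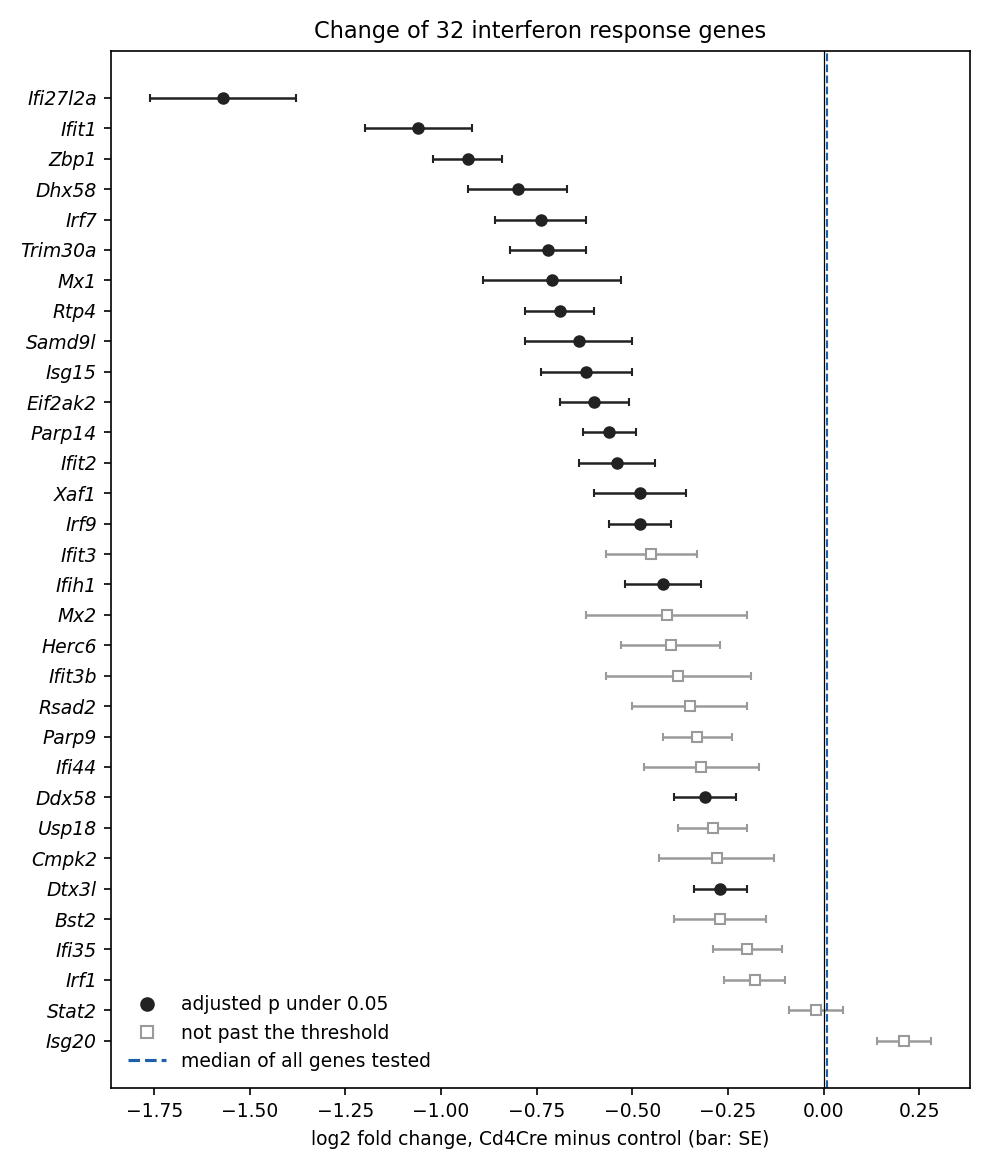
Log2 fold change (Cd4Cre minus control, horizontal) of each of the 32 genes with its SE, in order of size. Filled circles passed adjusted p 0.05, open squares did not, and the dashed line is the median of all genes tested (0.01); the changes run from -1.57 for Ifi27l2a to 0.21 for Isg20.

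Levels per length ranged in the controls from 160 ± 9.5 FPKM for Ifi27l2a to 1.34 ± 0.162 FPKM for Mx2 (SD, n = 3). Isg20, the next most abundant by FPKM (90.8 ± 3.07), had the positive change, and Zbp1 (55.3 ± 5.04 FPKM) came after it. Irf1, Bst2, Isg15 and Parp9 followed at 42.9 ± 2.38, 41.3 ± 2.37, 32.3 ± 2.12 and 31.8 ± 2 FPKM, where Irf1 and Bst2, and Isg15 and Parp9, differed by less than their SD. Across the 32 genes, which share the same 6 libraries and are not independent, Spearman's rho between control FPKM and log2 change was 0.02.

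None of 21 interferon genes (Ifna genes, Ifnb1, Ifne, Ifnk, Ifnz, Ifng, Ifnl2 and Ifnl3) passed the filter on low counts, and 13 had 0 counts in all 6 libraries, where 0 counts allow up to 0.0665 CPM over the controls and 0.0646 CPM over the Cd4Cre libraries. Ifnb1, the beta interferon, had 2 counts in the controls and 0 in Cd4Cre, and Ifnl2, a type III interferon, had 7 and 0. Ifng had 8 and 11 counts and Ifnz 8 and 12. Most of these levels were too low to compare at this depth.
The receptor genes Ifnar1 and Ifnar2 were at 43.7 ± 0.9 and 30.4 ± 1.39 FPKM in the controls and 43.3 ± 1.94 and 29.7 ± 3.88 FPKM in Cd4Cre, with log2 changes of -0.01 and -0.02 (adjusted p = 0.966 and 0.928). Jak1 and Tyk2, their kinases, had changes of -0.05 and 0.08 (adjusted p = 0.753 and 0.709).
Other receptor and signalling genes measured were Stat3 (log2 change -0.01), Ifngr1 (0.25), Ifngr2 (-0.26), Jak2 (-0.15), Ifnlr1 (-0.94, SE 0.31) and Il10rb (-0.03), none of which passed.

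Of 16 sensors and adaptors that lead to interferon production, 2 fell and 14 did not pass, with a median of -0.08. These were Tlr7, a receptor for single-stranded RNA (-0.57, SE 0.15, adjusted p = 0.0436), and Traf3, an adaptor of the kinases that activate IRF3 (-0.32, SE 0.07, adjusted p = 0.024). Both calls ended when any 1 control library or Cd4Cre replicate 1 was left out, at adjusted p from 0.0637 to 0.23 and from 0.0946 to 0.131. Of 10 negative regulators, Adar, which edits double-stranded RNA and is itself interferon-inducible, fell (-0.30, SE 0.07, adjusted p = 0.0343, or 0.103 to 0.181 without the same libraries), and 9 did not pass, with a median of 0.07. Socs1, the feedback inhibitor of JAK kinases, was at 74.6 ± 6.25 and 90.5 ± 3.01 CPM (SD, n = 3, log2 change 0.28, adjusted p = 0.0681), named here after its values were seen.

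The 2 other families of interferon-induced genes were set beside the 32 genes by counts, with no test between the lists. Of 10 OAS genes tested, 4 fell, with a median of -0.59, and of 18 interferon-induced GTPase genes of the Gbp and Irg families, 10 fell, with a median of -0.38. None rose in either. The shares that fell were 40% and 55.6%, against 56.2% of the 32 genes and 3.19% of all genes. Oas2 and Gbp10 had log2 changes of -1.87 (SE 0.14) and -3.13 (SE 0.30), both below the -1.57 of Ifi27l2a.

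**Figure D3:**
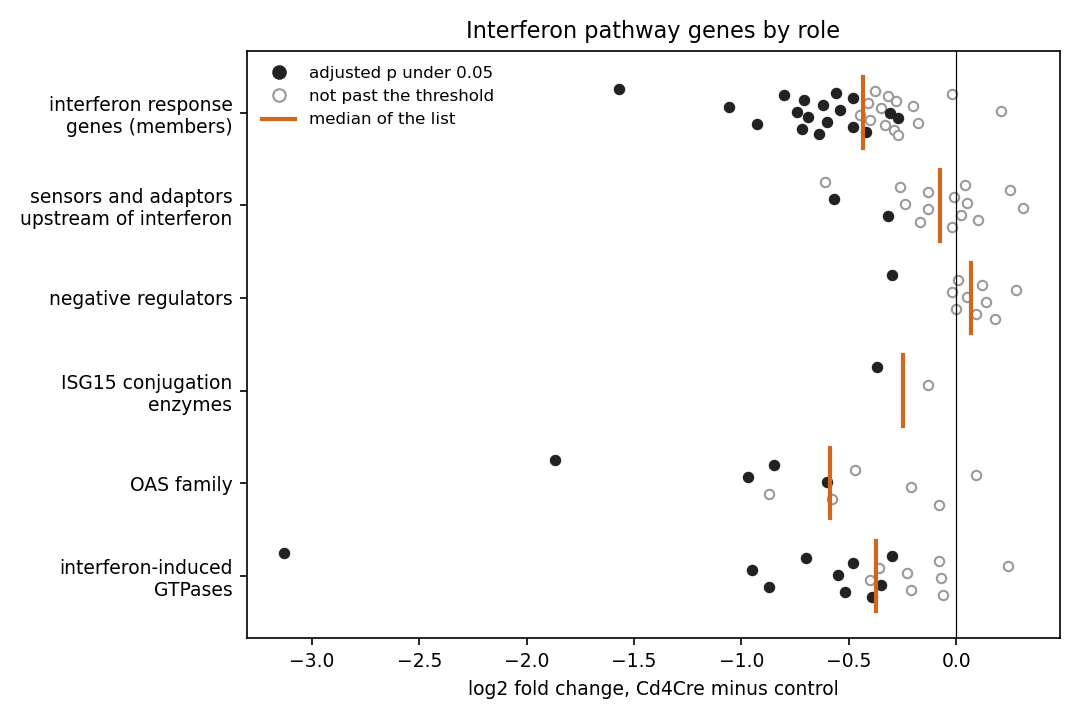
Log2 fold change (Cd4Cre minus control, horizontal) of each tested gene by role in the interferon pathway. Filled points passed adjusted p 0.05 and vertical bars are list medians, which lie at -0.43 for the interferon response genes, -0.59 for OAS and -0.38 for GTPases but at -0.08 and 0.07 for upstream sensors and negative regulators; interferon genes are absent because none passed the filter.

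Age was a factor of the design that differed between replicates of each genotype. With age in weeks as a covariate 14 of the 32 genes fell and none rose, while 2.65% of all genes fell. In that fit Ifih1, Mx1, Dtx3l and Xaf1 no longer passed. Both ages gave the same direction. In the 4-week pair, with 1 library per genotype and therefore no test, 31 of 32 genes were lower in Cd4Cre, with a median log2 difference of -0.50. In the 3-week libraries 31 of 32 were lower in the mean, with a median of -0.38, and in both cases the exception was Isg20. The signs of all genes were not counted by age. With all libraries 6630 of 13934 genes tested had negative changes, against 31 of the 32. With the 2 against 2 libraries of 3-week mice alone, 5 genes passed the edgeR test as lower, while 1.04% of all genes fell. They are Zbp1 (adjusted p = 0.00454), Ifit1 (0.0178), Dhx58 (0.0313), Isg15 (0.0423) and Rtp4 (0.0491). In a fit with an age term for the genotype effect, 0 of the 32 genes passed, as did 0 of all 13934 genes tested (edgeR quasi-likelihood). With a single pair at 4 weeks, that fit cannot decide whether the genotype effect differed between the ages.

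Transcripts of other thymic cells moved with genotype as well, and their part in the lower interferon response levels was not tested. Of 13 markers of mature single-positive thymocytes 9 fell, and their summed level was 1210 to 1310 CPM in the controls and 905 to 963 CPM in Cd4Cre. Gimap4 and Gimap3, GTPases of lymphocyte survival, Zbtb7b, the CD4 lineage factor, and Ccr7, the receptor for entry into the medulla, had log2 changes of -2.33, -2.21, -1.62 and -1.33. The 3 Cd4Cre libraries lay below the 3 controls for this sum, as they did for the sum of the interferon response genes.
Of 11 markers of conventional and mature dendritic cells 3 fell, with summed levels of 273 to 318 and 141 to 179 CPM. Most of the lower sum came from Ccl22 and Fscn1. Ccl22, a chemokine of mature dendritic cells, was at 117 ± 14.8 and 25.9 ± 3.22 CPM (-2.17). Fscn1 was at 75.7 ± 4.15 and 42.4 ± 7.79 CPM (-0.83). Of the 11 markers 7 had negative and 4 had positive changes, with a median of -0.34. Plasmacytoid dendritic cells are strong producers of type I interferon, and 1 of their 10 markers fell (Pacsin1, -0.78, adjusted p = 0.0109, or 0.0595 without control replicate 1). Siglech, their defining marker, was at 7.43 ± 1.31 and 6.03 ± 0.562 CPM (adjusted p = 0.423). The summed plasmacytoid markers overlapped at 1600 to 1790 and 1450 to 1730 CPM, and Ccr9, which thymocytes also express, made up 1230 ± 99 and 1230 ± 132 CPM of them. Siglech, Ccr9, Aire, Kit, Il2ra, Cd4 and Cd8a are named after their values were seen.
Among markers of medullary epithelium, a source of interferon in the thymus, 4 of 9 fell and 1 rose (372 to 466 and 322 to 374 CPM), and Aire was at 19.6 ± 3.99 and 13.4 ± 1.33 CPM (adjusted p = 0.0594). B cell markers summed to 97.9 to 110 and 49.2 to 74.7 CPM with 3 of 10 lower.
In some lists the sum and most members differed in direction. Macrophage markers summed to 1170 to 1230 and 980 to 1060 CPM, but only Lyz2, a lysozyme, passed, at 338 ± 31 and 134 ± 16.7 CPM (-1.33). Of the 11 macrophage markers 7 had positive log2 changes, and the median was 0.05. Plasma cell markers summed to 340 to 355 and 258 to 278 CPM through the antibody genes Igkc, Igha and Ighg2b and the joining chain Jchain, which fell. Sdc1 rose, 5 of the 9 plasma cell markers had positive changes, and the median was 0.16.
Foxp3, the defining factor of regulatory T cells, had 236 counts in the controls and 2 in Cd4Cre. It fell together with Tnfrsf4 and Tnfrsf18, while the other 4 of 7 regulatory T cell markers did not pass and the sums overlapped at 166 to 184 and 151 to 176 CPM.
Other lists went up. Of 8 gamma-delta T cell markers 6 rose (611 to 623 and 899 to 952 CPM), and of 7 markers of cortical epithelium 3 rose (1890 to 2010 and 2290 to 2580 CPM). Of 8 tested NK and innate-like markers 3 rose (30.4 to 33.7 and 47.6 to 60.7 CPM). Most of that higher sum came from these 3, Klrk1 (1.97 and 11.2 CPM), Klrb1c (2.35 and 10.1 CPM) and Gzmb (3.34 and 8.53 CPM). Of the 8 tested markers 5 had positive and 3 had negative changes. The markers of double-positive thymocytes summed to 9560 to 9900 and 10400 to 11100 CPM with 1 of 7 higher, and those of DN2 and DN3 thymocytes overlapped, with 2 of 9 higher. No neutrophil, erythroid, endothelial or fibroblast marker passed, while erythroid markers varied within each genotype, from 572 to 2240 and from 703 to 2610 CPM. No list had a marker at 0 counts in all libraries.

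**Figure D4:**
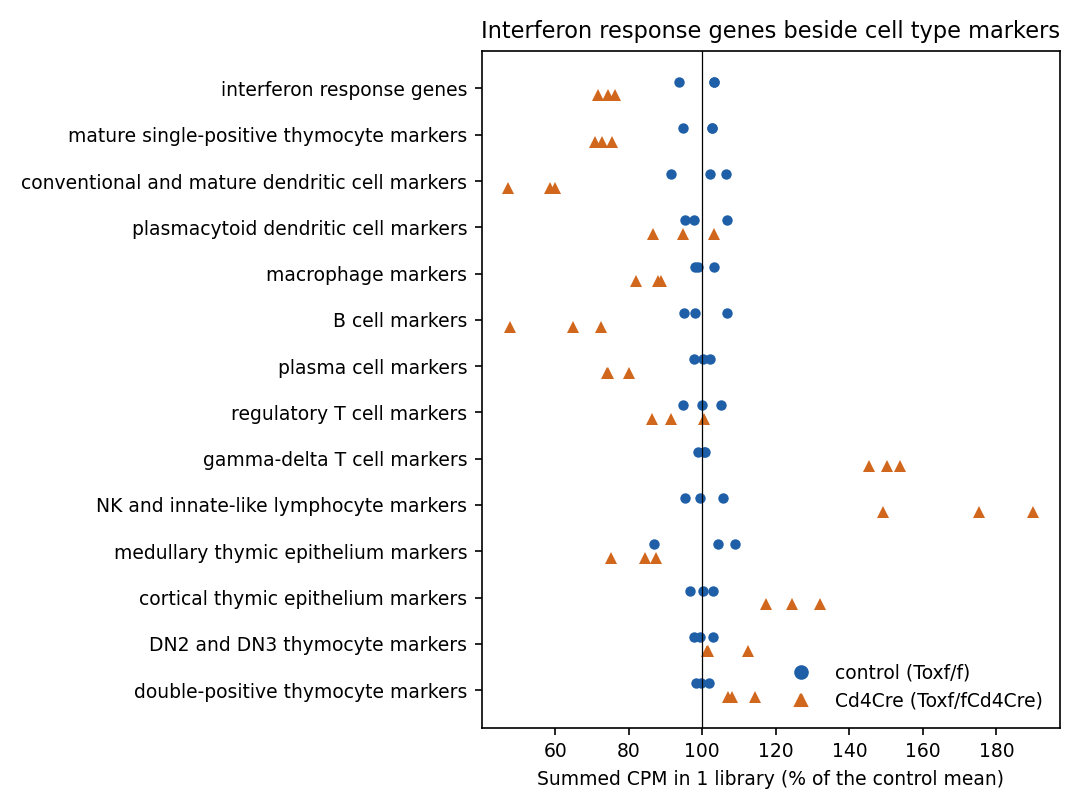
Summed CPM of the interferon response genes and of each cell type's markers in each library, as a percentage of the mean of the 3 controls (vertical line at 100). Circles are controls and triangles Cd4Cre libraries. The interferon response, mature single-positive, conventional and mature dendritic, macrophage, B cell and plasma cell sums lie lower in Cd4Cre, without overlap. The gamma-delta, NK, cortical epithelium and double-positive sums lie higher, without overlap. The higher NK sum rests mostly on Klrk1, Klrb1c and Gzmb, and 3 of its 8 tested markers had negative changes. The plasmacytoid dendritic sums overlap. The lower macrophage sum rests on Lyz2 and the lower plasma cell sum on 4 genes; most other members of both lists had positive changes.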

How the data were processed

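Estimated counts and FPKM values per gene were deposited by the authors for 6 libraries. Use of fastp 0.18.0, HISAT2 and StringTie 1.3.1 is recorded per the submitters' processing notes. Of the counting program, genome build, annotation and use of strand nothing is said there (not given in the sources used here). Per the file headers the estimated counts are plain counts per gene, and between 9.27% and 9.87% of them were fractional. FPKM as deposited by the authors is scaled for gene length and depth, and served for levels between genes.

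Estimated counts were rounded and fitted across all genes in R 4.3.3 with edgeR 4.0.16 (filterByExpr, minimum count 10 and minimum total 15, TMM, robust quasi-likelihood test, two-sided, Benjamini-Hochberg over 13934 genes, threshold 0.05). SE values derive from the quasi-likelihood F. An exact permutation test of 3 against 3 libraries cannot go below 0.1 and was not used. Limits for 0 counts use 3 counts over a group and cover counting error only. The code was tested on simulated data. DESeq2 1.42.0 and limma 3.58.1 served as alternatives, as did a fit with age as a covariate. The member genes and all lists were chosen with earlier results of these data known. All 32 members are named, and from each list up to 4 genes past the threshold with the smallest p, besides the listed receptors, interferons and ISG15 enzymes. A gene of the receptor list is not reported here. Same-numbered libraries were not treated as pairs.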

Additional observations from a re-analysis of the deposited data

How the results depend on the processing

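Over all alternatives, single-gene results of the 32 genes stayed on their side of the threshold in 470 cases, lost the call in 63 and gained one in 10, with no change of direction except for Stat2. With other scalings (DESeq2 size factors or upper quartile in edgeR) the same 18 genes fell and no direction changed. Of all genes 3.34% and 3.3% fell in these fits, against 3.19% in the main fit. DESeq2 itself, and edgeR without a filter, called 20 lower (Ifit3 and Parp9 added), with 3.44% and 2.76% of all genes lower. In limma on log2(FPKM + 0.1) and on log2(FPKM + 1), 13 fell, with 2.3% and 2.35% of all genes lower. In the 3-week libraries alone 5 of the 32 genes fell, and over all genes 145 fell and 34 rose (445 and 168 with all libraries); limma on log2(FPKM + 0.1) and on log2(FPKM + 1) called 102 genes higher. Leaving out 1 library gave 11 to 21 of the 32 genes lower, 0 to 1 higher, a median log2 change of -0.53 to -0.37, and 248 to 931 lower and 80 to 584 higher genes overall. The sign of Stat2, which passed in no setting, changed without control replicate 1 or Cd4Cre replicate 3, at changes close to 0. Without robust shrinkage, an alternative chosen after seeing the data, 17 of the 32 genes fell (Mx1 lost), and 2.96% of all genes fell. With age as a covariate 14 of the 32 genes fell, and overall 369 genes fell and 132 rose. With the replicate number as a block, 13 of the 32 genes and 355 genes overall fell and 139 rose. Deviations of same-numbered libraries correlated at 0.08, -0.13 and -0.05 over 2000 genes, within the range of differently numbered ones (-0.14 to 0.15). With 3 libraries per genotype, whose deviations are not independent, these values cannot decide whether the numbers mark pairs. The numbers do go with age, since replicate 1 was of the older mice in both genotypes. The ISRE share was 34.8% in the 250 bases before the start alone (3.46% of all genes) and 56.5% for the shorter GAAANNGAA (9.76% of all genes). Depth limits the interferon genes themselves, most of which had 0 counts.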

Other observations

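Within the controls, replicate 3 had the lowest level of 30 of the 32 interferon response genes, and replicates 1 and 2 had the highest of 15 and 17. The same count was not made over all genes, so whether this order is particular to the 32 genes was not tested. Control replicate 3 also had the highest erythroid marker sum of its group (2240 CPM, against 701 and 572 CPM in replicates 1 and 2). A link between erythroid sums and the order of libraries for the 32 genes was not tested in either genotype. In the Cd4Cre group no library was so consistently low: replicate 3 was highest for 17 genes and lowest for 7, replicate 1 highest for 9 and lowest for 11, and replicate 2, with the highest erythroid sum of all libraries (2610 CPM), highest for 7 and lowest for 14. The summed level of the 32 genes in that lowest control (1400 CPM) remained above the highest Cd4Cre library (1140 CPM).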
